A study of Mus musculus with 30 samples.

Results

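Malat1, Neat1, Meg3, Rian, Mirg, H19 and Kcnq1ot1 are 7 long noncoding RNA genes, chosen by name from the RNAs that total RNA libraries of the heart hold. All 7 had a row among the 49671 genes of the peptide counts table, and all 7 were present among the 55263 annotated genes of the antibody table once its transcripts were summed, where they had 59 of the 142647 transcripts. They were chosen by name with earlier results of these data known, and the rule itself uses no measured value.

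Long noncoding RNAs are transcripts without a protein product, and many of them act in the nucleus. Malat1 lies in nuclear speckles, where splicing factors are stored, and Neat1 is the scaffold of paraspeckles, nuclear bodies that hold RNA-binding proteins and edited RNAs. Meg3, Rian and Mirg come from the maternal chromosome of the Dlk1-Dio3 imprinted region, where Rian hosts small nucleolar RNAs and Mirg hosts a large cluster of microRNAs. H19 is a maternally expressed RNA next to Igf2 that is abundant in the fetal heart and falls after birth, and Kcnq1ot1 is transcribed from the paternal chromosome, antisense to the potassium channel gene Kcnq1, and silences neighbouring genes in cis.

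All hearts were left ventricles of male wild-type C57BL6J mice, and each mouse was 1 library, with no transgene in any group. In the peptide study 7 mice received Aβ42, a recombinant human amyloid beta peptide, and 7 received ScrAβ42, the same amino acids in scrambled order, by daily injection into the peritoneum for 4 weeks from 12 weeks of age by the labels and from 10 to 12 weeks by the methods. The labels give the peptide dose as 1 mg per day and the methods as 1 µg per day, and the labels do not say which of 2 peptide cohorts gave these hearts. In the antibody study 8 mice received 3D6, an antibody that binds amyloid beta, and 8 received an isotype control antibody, at 0.75 mg/kg each week for 4 months while on a high-fat diet, which began after a first echocardiography at 12 weeks of age. The deposited design text says instead that the mice of the antibody study were also given Aβ42, so that what both antibody groups share is uncertain here. The groups ask whether the peptide, or its neutralisation, moves with gene expression in the heart.

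The peptide libraries held 4478991 to 6015767 counts and the antibody libraries 6397192 to 8310478 estimated counts. Markers of ventricular cardiomyocytes were abundant in all hearts, with a summed level of 53996 to 107233 CPM (counts normalised to library size) for 9 genes in the peptide study and 55974 to 64505 CPM in the antibody study. The summed level of 5 atrial markers varied widely, and ran from 12.3 through a median of 1154 to 8387 CPM in the Aβ42 group and from 3.81 through 10.5 to 3652 CPM in the ScrAβ42 group. Mitochondrial genes took 12.9 to 22.2% of the counts in the peptide study and 25.9 to 37.8% in the antibody study. In such bulk samples fewer cells of a type and less RNA per cell cannot be told apart. With the edgeR quasi-likelihood test, 0 of 11985 genes of the peptide hearts and 0 of 12274 genes of the antibody hearts passed an adjusted p of 0.05, while 780 and 447 had an unadjusted p under 0.05. DESeq2 called 12 genes with the peptide and 0 with the antibody. Of all genes tested, 6056 had a higher and 5929 a lower fitted level with Aβ42, and 5815 a higher and 6459 a lower one with 3D6.

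Malat1 and the long isoform of Neat1 share an unusual 3′ end, which is shown because it sets apart the 2 isoforms of Neat1 that the antibody table separates. Both ends carry a pair of U-rich motifs and an A-rich tract that fold into a triple helix in place of a poly(A) tail, whereas the short Neat1 isoform ends behind an ordinary polyadenylation signal. The sequences below are from the GENCODE vM21 transcripts of GRCm38, on the minus strand of chromosome 19, with T for U. Capitals mark TTTCTTTT, TTTTGCTTTT and AAAAAGCAAAA in the first 2 sequences and AATAAA in the last. Each of the 3 elements was found 1 time in each 120-base window, and the last 10 bases of Neat1-201 are the reverse complement of TTTTGCTTTT. Malat1-201 is at chr19:5795982-5796101, Neat1-201 at chr19:5824708-5824827 and Neat1-202 at chr19:5842307-5842366. The annotated Malat1-201 runs on for 292 bases beyond the window shown.
Malat1-201: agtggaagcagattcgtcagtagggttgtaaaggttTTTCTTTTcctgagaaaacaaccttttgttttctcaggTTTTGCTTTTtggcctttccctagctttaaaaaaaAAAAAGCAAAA
Neat1-201: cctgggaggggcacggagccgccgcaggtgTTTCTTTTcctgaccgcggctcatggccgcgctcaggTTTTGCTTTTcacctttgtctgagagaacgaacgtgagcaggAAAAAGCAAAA
Neat1-202: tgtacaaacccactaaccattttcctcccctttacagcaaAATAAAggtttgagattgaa

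The promoter windows of Meg3, Rian and Mirg are shown because these neighbours were high in the same hearts of the peptide study (below). They are RefSeq windows of GRCm38.p6 on the plus strand, from 250 bases before to 50 bases after the annotated start. Meg3 is at chr12:109540746-109541045, Rian at chr12:109603695-109603994 and Mirg at chr12:109734731-109735030, where the RefSeq start of Mirg lies downstream of the GENCODE gene start. Capitals mark TATAAA, TGACGTCA and CCAAT on either strand, and GGGCGG was searched too. The Meg3 window shown held TATAAA on both strands, overlapping each other, besides 1 TGACGTCA and 1 CCAAT. Rian held none of the 4 motifs, and Mirg held 1 CCAAT. The Mirg window lies within the GENCODE gene and holds its microRNA genes Mir668 (chr12:109734732-109734797) and Mir485 (chr12:109734902-109734974). Its motifs and CpG dinucleotides are therefore those of a stretch inside that gene. Among 32851 RefSeq windows of this length, 13.6% held TATAAA, 1.79% TGACGTCA, 37.4% CCAAT and 35.7% GGGCGG. Meg3 had 13 CpG dinucleotides and Mirg 10, Rian had 0, and the median window had 7. RefSeq lists a further start of Meg3, whose window at chr12:109545148-109545447 held none of the 4 motifs and 1 CpG.
Meg3: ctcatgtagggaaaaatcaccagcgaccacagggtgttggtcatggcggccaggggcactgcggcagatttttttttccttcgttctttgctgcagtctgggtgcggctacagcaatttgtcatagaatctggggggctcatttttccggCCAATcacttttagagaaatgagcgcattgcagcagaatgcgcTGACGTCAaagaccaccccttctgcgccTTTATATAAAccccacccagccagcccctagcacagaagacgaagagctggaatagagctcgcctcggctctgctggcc
Rian: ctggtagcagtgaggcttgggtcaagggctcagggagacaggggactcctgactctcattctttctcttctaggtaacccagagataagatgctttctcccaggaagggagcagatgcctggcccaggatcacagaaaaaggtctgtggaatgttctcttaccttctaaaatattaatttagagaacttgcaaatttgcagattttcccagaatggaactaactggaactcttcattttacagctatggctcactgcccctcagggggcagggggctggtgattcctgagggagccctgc
Mirg: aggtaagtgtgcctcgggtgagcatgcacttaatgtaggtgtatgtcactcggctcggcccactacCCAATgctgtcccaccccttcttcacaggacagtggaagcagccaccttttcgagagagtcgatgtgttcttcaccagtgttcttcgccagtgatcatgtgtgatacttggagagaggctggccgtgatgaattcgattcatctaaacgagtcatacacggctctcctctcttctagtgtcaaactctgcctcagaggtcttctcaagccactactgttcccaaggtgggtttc

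The genes lie in 3 clusters of GRCm38. Malat1 (chr19:5795690-5802672) and Neat1 (chr19:5824708-5845478) are 22036 bases apart on the minus strand. Meg3 (chr12:109541001-109571726) is followed after 32214 bases by Rian (chr12:109603940-109661716), and Rian after 68048 bases by Mirg (chr12:109729764-109749460), all on the plus strand. H19 (chr7:142575529-142578143) and Kcnq1ot1 (chr7:143203458-143296549) are 625315 bases apart on the minus strand. The annotation places 13 snoRNA genes and 4 microRNA genes within Rian and 14 microRNA genes within Mirg on the same strand. Each of these small RNA genes is listed apart from its host, with a mean of at most 0.143 counts per heart in either study.

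Per kilobase of exon, Neat1 and Malat1 were the most abundant of the 7 RNAs in both studies and Mirg and Kcnq1ot1 among the least. In the peptide study the median level per kilobase was 75.7 CPM for Neat1, 49.4 for Malat1, 5.89 for H19, 0.927 for Meg3, 0.276 for Rian, 0.0747 for Mirg and 0.0398 for Kcnq1ot1. Neat1 was above Malat1 in 14 of 14 hearts, although the ranges over hearts overlapped. H19 was above Meg3 in 11 of 14 hearts and Mirg above Kcnq1ot1 in 9 of 14, so those neighbours were not ordered beyond their spread.

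In the antibody study Malat1 stood first. Its median was 176 CPM per kilobase against 23.6 for Neat1, 11.6 for H19, 0.694 for Meg3, 0.114 for Rian, 0.0773 for Kcnq1ot1 and 0.0205 for Mirg. Malat1 exceeded Neat1 in 16 of 16 hearts with no overlap of their ranges, whereas Neat1 exceeded H19 in 13 of 16 and Rian exceeded Kcnq1ot1 in 8 of 16. The order of Malat1 and Neat1 thus differed between the tables, which were made and normalised separately, one per gene and one per transcript, so that no level is compared across them. An antisense gene of unknown coding status within Malat1, Gm37376, held 0 counts in all 14 peptide hearts and 210 to 1022 in the antibody hearts; whether the counting used strand is not stated, and the share of Malat1 reads in it was not tested.

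**Figure D1:**
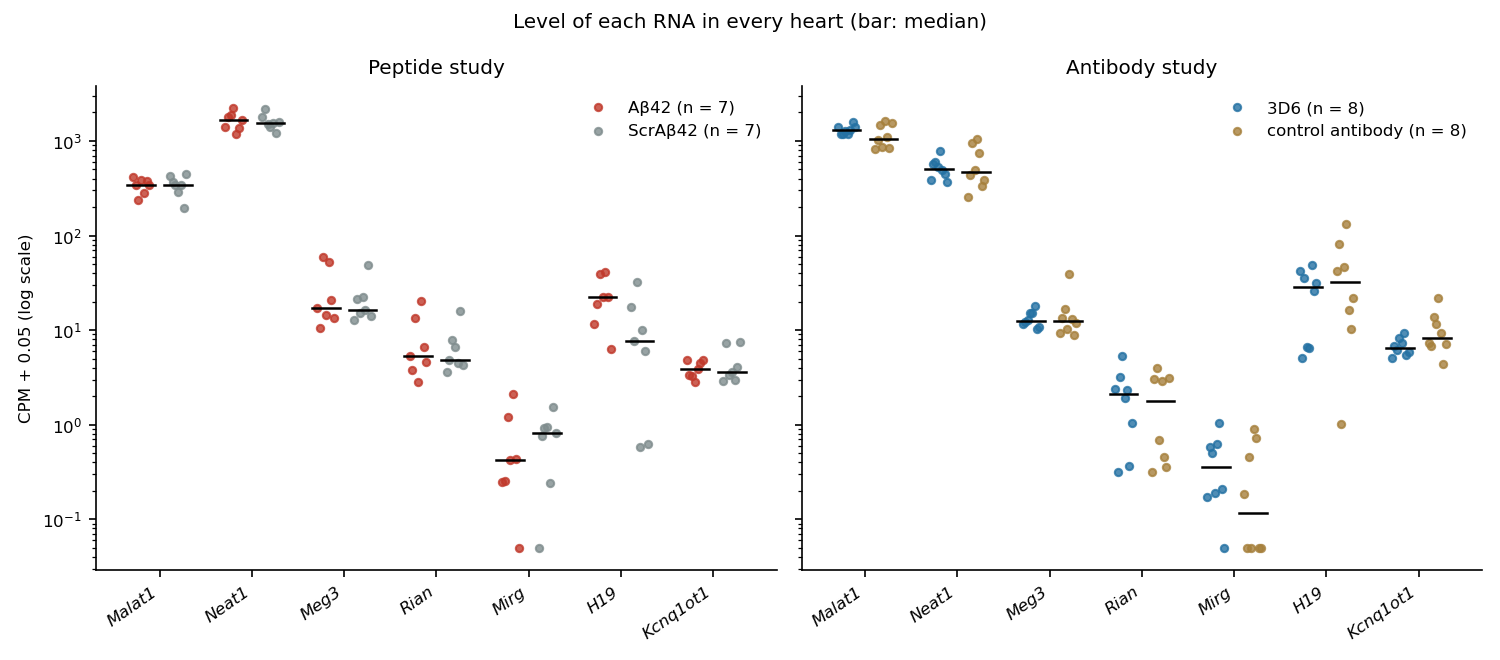
Level of the 7 RNAs in each heart (CPM plus 0.05, log axis), 1 point per heart, with the group median as a bar. Groups overlapped for all 7 RNAs in both studies, and H19 spread the most widely among the RNAs that were counted in every heart, from 0.537 to 40.9 CPM in the peptide hearts.

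None of the 6 RNAs that could be tested passed an adjusted p of 0.05 in either study, against 0% of all genes. At an unadjusted p under 0.05, 0 of the 6 passed with the peptide, where 6.51% of all genes did (3.6% higher and 2.91% lower), and 1 of the 6, Kcnq1ot1, passed as lower with the antibody, where 3.64% did (1.32% higher and 2.32% lower). Mirg had a mean under 10 counts per heart and was not tested in the fit. The edgeR adjusted p-values of the 6 RNAs ran from 0.775 to 0.991 with the peptide and from 0.946 to 0.964 with the antibody.

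**Figure D2:**
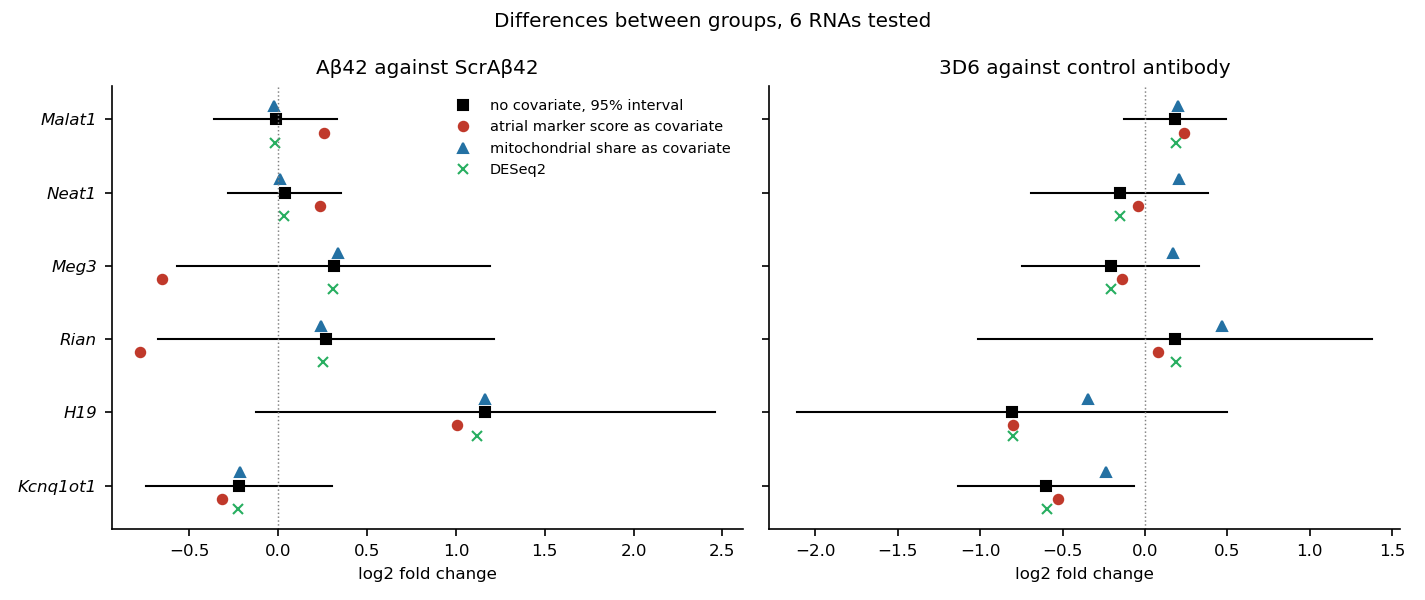
Log2 fold change of the 6 tested RNAs, treated against control, with its 95% interval (squares and lines, edgeR), and the value with the atrial marker score or the mitochondrial share in the model or with DESeq2. For Meg3 and Rian in the peptide study the value with the atrial score lies on the other side of 0, at -0.66 and -0.78.

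Malat1, the speckle RNA, had close to the same level with both peptides. It ran from 239 CPM through a median of 346 to 415 in the Aβ42 hearts and from 197 through 344 to 449 in the ScrAβ42 hearts. The 3 lowest of the 14 hearts were mice ScrAbeta42_3448, Abeta42_3455 and Abeta42_3457, at 197, 239 and 283 CPM, the hearts that were highest in Meg3, Rian and Mirg (below). The ranges of the groups overlapped widely, and the log2 difference of Aβ42 from ScrAβ42 was -0.02 (SE 0.16; edgeR adjusted p = 0.991; two-sided exact permutation p = 0.969). Its sign depended on the fit: it was 0.015 with scaling by total counts and 0.26 with the atrial marker score in the model.

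With the antibodies Malat1 ran from 1186 CPM through 1294 to 1604 with 3D6 and from 828 through 1056 to 1639 with the control antibody. All 8 hearts of the 3D6 group were above the control median, yet 3 control hearts lay within or above their range, and the difference was 0.18 on the log2 scale (SE 0.15; 95% interval -0.13 to 0.49; edgeR p = 0.232; adjusted p = 0.946; exact permutation p = 0.165). It was not larger than the spread between the hearts.

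Neat1, the paraspeckle scaffold, ran from 1195 CPM through 1655 to 2230 with Aβ42 and from 1200 through 1563 to 2169 with ScrAβ42. The ranges nearly coincided, and the log2 difference was 0.04 (SE 0.15, edgeR adjusted p = 0.978). Its sign turned when mouse Abeta42_3455, Abeta42_3456 or ScrAbeta42_3448 was left out. With the antibodies Neat1 ran from 371 through 509 to 788 CPM with 3D6 and from 254 through 465 to 1056 with the control antibody. The control hearts thus spread on both sides of the 3D6 hearts. The log2 difference of 3D6 from the control was -0.15 (SE 0.26; edgeR adjusted p = 0.946; exact permutation p = 0.925), and it became 0.029 without control mouse Con_22 and 0.21 with the mitochondrial share in the model.

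Meg3 was high in 3 of the 14 peptide hearts. It ran from 10.5 CPM through 17.1 to 58.8 with Aβ42 and from 12.9 through 16.4 to 48.9 with ScrAβ42. Mice Abeta42_3455 and Abeta42_3457 had 58.8 and 52.8 CPM and mouse ScrAbeta42_3448 had 48.9, while the other 11 hearts stayed between 10.5 and 22.6 CPM. The log2 difference of Aβ42 from ScrAβ42 was 0.31 (SE 0.42; 95% interval -0.57 to 1.19; edgeR adjusted p = 0.936; exact permutation p = 0.766).

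Rian, the snoRNA host, was high in the same 3 hearts. It ran from 2.80 CPM through 5.31 to 20.4 with Aβ42 and from 3.57 through 4.76 to 16 with ScrAβ42. Mice Abeta42_3457, ScrAbeta42_3448 and Abeta42_3455 had 20.4, 16 and 13.5 CPM, and the highest of the other 11 hearts had 7.84. Its log2 difference was 0.27 (SE 0.45; edgeR adjusted p = 0.947; exact permutation p = 0.819).

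Mirg, the microRNA host, was close to the counting limit in all hearts. It held at most 15 counts in a peptide heart, and 2 hearts had a count of 0, which allows up to 0.593 and 0.714 CPM (3 counts; floors and intervals here cover counting error only). Its level ran from 0 through 0.373 to 2.05 CPM with Aβ42 and from 0 through 0.772 to 1.50 with ScrAβ42. The highest 3 hearts were again mice Abeta42_3457, ScrAbeta42_3448 and Abeta42_3455, and no difference between the groups was detected (two-sided exact permutation p = 0.626).

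The 3 hearts with high Meg3, Rian and Mirg also stood apart in fibroblast markers. These markers, 8 genes that include the collagens Col1a1 and Col3a1, summed to 1495, 2205 and 2381 CPM in mice Abeta42_3455, Abeta42_3457 and ScrAbeta42_3448, against 751 to 1196 CPM in the other 11 hearts. Their atrial markers summed to 4690, 8387 and 3652 CPM, but they did not stand apart in these: mouse Abeta42_3458 had 4342 CPM of atrial markers with 20.8 CPM of Meg3, and mouse Abeta42_3451 had 1154 CPM with 17.1 CPM of Meg3. No marker of either list was at 0 in all hearts of a group. Their ventricular markers were the lowest of the 14 hearts, at 71640, 53996 and 66659 CPM against 81294 to 107233 CPM in the rest. Mice Abeta42_3455 and ScrAbeta42_3448 had the highest macrophage marker sums of their groups, 232 and 325 CPM, and mice Abeta42_3457 and ScrAbeta42_3448 the highest adipocyte marker sums of theirs. Mice Abeta42_3457 and ScrAbeta42_3448 had the lowest mitochondrial shares, 12.9 and 13.8%. The part of these tissues in the levels of Malat1, Meg3, Rian and Mirg was not tested.

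With the atrial marker score in the model, the log2 difference of Aβ42 from ScrAβ42 became -0.66 for Meg3 (edgeR adjusted p = 0.546) and -0.78 for Rian (edgeR adjusted p = 0.529). Without the 5 hearts above 1000 CPM of atrial markers it was -0.43 for Meg3 and -0.52 for Rian over 3 Aβ42 and 6 ScrAβ42 hearts, and without the 3 hearts high in fibroblast markers it was -0.17 and -0.20. The direction of both RNAs with the peptide therefore depended on those hearts.

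Because these 3 hearts form a cluster, relations among the neighbours were computed within the other hearts, on log2 CPM with the group mean subtracted. Over the 11 hearts with low fibroblast markers, Meg3 and Rian had a Pearson r of 0.56 (two-sided permutation p = 0.0737; Spearman rho 0.57, p = 0.0711), and r was 0.29 without the 2 hearts farthest from the Meg3 median. Over the 9 hearts with low atrial markers, r was 0.30 (permutation p = 0.418; rho 0.35, p = 0.358). Among 24 relations computed in these subsets the smallest Benjamini-Hochberg adjusted permutation p was 0.214 for r and 0.402 for rho. Both subsets were chosen after seeing the data, and with 11 or 9 hearts an r of this size did not pass; this does not show that the RNAs are unrelated in those hearts.

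**Figure D3:**
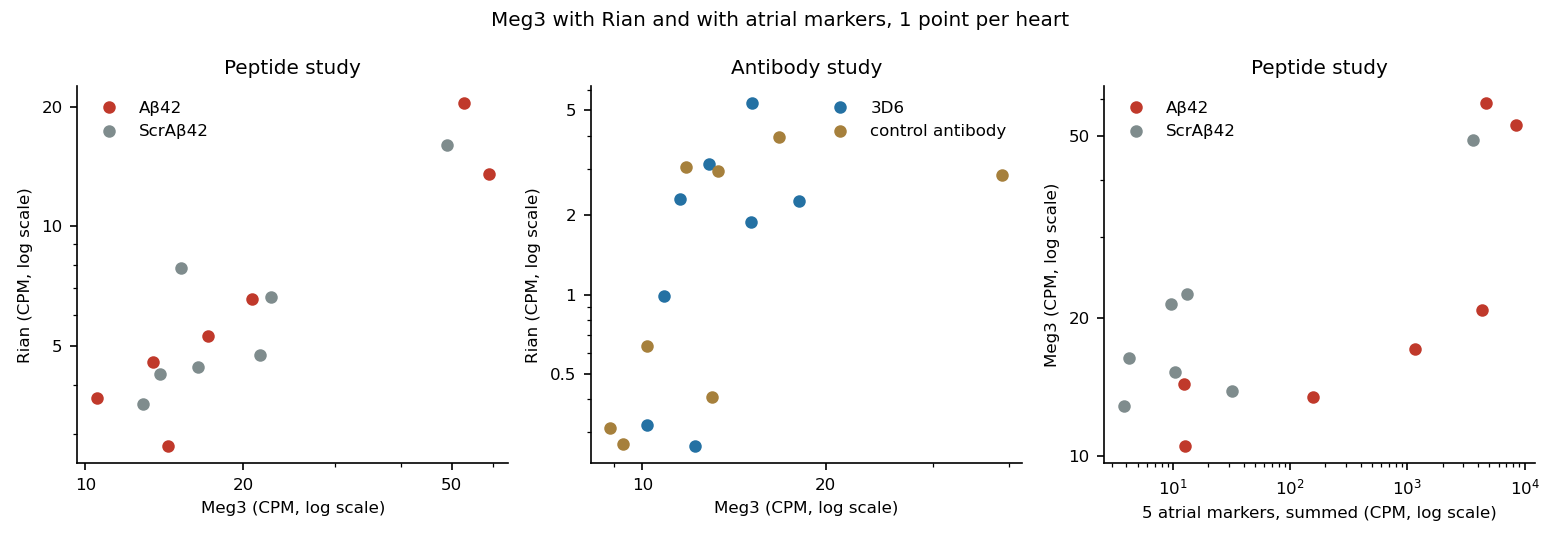
Rian against Meg3 in both studies and Meg3 against the summed level of 5 atrial markers in the peptide study (CPM, log axes), 1 point per heart. In the peptide study 3 hearts lie apart at 48.9 to 58.8 CPM of Meg3, and each of them has 3652 CPM or more of atrial markers, as does mouse Abeta42_3458 with 20.8 CPM of Meg3.

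Among the antibody hearts Meg3 ran from 10.2 CPM through 12.6 to 18.1 with 3D6 and from 8.86 through 12.4 to 38.9 with the control antibody. Control mouse Con_22 alone had 38.9 CPM, and the other 15 hearts lay between 8.86 and 18.1. The log2 difference of 3D6 from the control was -0.21 (SE 0.26; edgeR adjusted p = 0.946; exact permutation p = 0.878), and it was 0.15 without mouse Con_22 and 0.17 with the mitochondrial share in the model.

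Rian ran from 0.266 CPM through 2.07 to 5.33 with 3D6 and from 0.270 through 1.74 to 3.96 with the control antibody, with 2 to 38 counts per heart. In both groups some hearts were near the counting limit, with 7 of 16 hearts at 0.986 CPM or less (2 to 7 counts) and 9 at 1.88 CPM or more, and the log2 difference was 0.18 (SE 0.57; edgeR adjusted p = 0.964; exact permutation p = 0.699). It was -0.19 without mouse 3D6_20. Of the Rian counts, 57.8% lay on Rian-202, which was assigned counts in 8 of 16 hearts and held 0 to 100% of the gene's counts per heart. The part of this assignment in the spread of Rian, and in its relation with Meg3 (below), was not tested. Mirg had 0 to 7 counts and 0 in 5 hearts, which allows 0.403 to 0.477 CPM, and its exact permutation p was 0.380.

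Across the 16 antibody hearts Meg3 and Rian had a Pearson r of 0.57 (permutation p = 0.0112; adjusted p = 0.032 over 20 planned relations) and a Spearman rho of 0.63 (p = 0.0106; adjusted p = 0.0304), and r was 0.70 without mouse 3D6_24 and control mouse Con_22. Meg3 and Mirg had an r of 0.70 (permutation p = 0.00073; adjusted p = 0.00292; rho 0.69, p = 0.00435), which was 0.51 without those 2 hearts. Rian and Mirg had an r of 0.10 (permutation p = 0.697; rho 0.01, p = 0.962). Meg3 and Mirg were both lower in hearts with a larger mitochondrial share (below), and the part of the share in their relation was not tested. Meg3 and the fibroblast marker score had an r of -0.02 (permutation p = 0.951; rho -0.08, p = 0.763) in this study. Over the 11 peptide hearts with low fibroblast markers the same relation had an r of 0.67 (permutation p = 0.0268; adjusted p = 0.214; rho 0.65, p = 0.0335; r without the 2 farthest hearts 0.53), and the difference between the studies was not tested.

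H19 had the largest log2 difference of the 6 RNAs with the peptide. It ran from 6.33 CPM through 22.4 to 40.9 with Aβ42 and from 0.537 through 7.58 to 32 with ScrAβ42. Mice ScrAbeta42_3445 and ScrAbeta42_3449 had 3 counts each, and 6 of 7 Aβ42 hearts were above the ScrAβ42 median, yet the groups overlapped. The log2 difference was 1.17 (SE 0.61; 95% interval -0.12 to 2.46; edgeR p = 0.0734; adjusted p = 0.775; two-sided exact permutation p = 0.0524). It did not pass the threshold. It was 1.76 without mouse ScrAbeta42_3443 (edgeR adjusted p = 0.900), which had the highest level of its group, and 0.57 and 0.53 without the 3 hearts high in fibroblast markers and the 5 hearts high in atrial markers (edgeR adjusted p = 0.907 and 0.926), the last 2 settings being chosen after seeing the data. Over all settings tried the unadjusted edgeR p-value was under 0.05 in 3, without ScrAbeta42_3443, without Abeta42_3460 and without the filter on low counts, and the adjusted value was 0.514 or more in every one. Marker lists of other tissues differed in direction between the same groups: with Aβ42 all 5 atrial, 6 mesothelial, 5 smooth muscle and pericyte and 4 tested adipocyte markers had a higher fitted level and all 5 blood markers a lower one, with medians of 2.31, 0.84, 1.22, 2.02 and -1.37 on the log2 scale. No marker of these lists passed an adjusted p of 0.05, and their part in the difference of H19 was not tested. For the smooth muscle markers Acta2, Myh11 and Tagln the direction rested on mouse Abeta42_3457. Without it their means were 91.2, 68.5 and 2.58 CPM with Aβ42 against 101, 87.8 and 2.98 with ScrAβ42. Cnn1 stayed higher, at 4.08 against 3.77 CPM, and Rgs5 differed by only 0.0025 over all hearts. The same mouse had the highest adipocyte marker sum of the Aβ42 group.

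Among the antibody hearts H19 ran from 5.05 CPM through 28.5 to 48.9 with 3D6 and from 0.955 through 31.9 to 134 with the control antibody. Control mouse Con_22 was the highest of the 16 hearts and control mouse Con_18, with 7 counts, the lowest, so the control group enclosed the 3D6 group. The log2 difference was -0.81 (SE 0.62; edgeR p = 0.211; adjusted p = 0.946; exact permutation p = 0.708), -0.30 without mouse Con_22 and -0.34 with the mitochondrial share in the model.

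Kcnq1ot1, the imprinted antisense RNA, ran from 2.80 CPM through 3.83 to 4.75 with Aβ42 and from 2.86 through 3.58 to 7.53 with ScrAβ42. Only mice ScrAbeta42_3442 and ScrAbeta42_3449 exceeded 5 CPM, and the log2 difference was -0.22 (SE 0.25, edgeR adjusted p = 0.920, exact permutation p = 0.598). It was -0.064 without mouse ScrAbeta42_3442 and -0.051 without mouse ScrAbeta42_3449. Kcnq1, on the opposite strand, had a median of 34.4 CPM with Aβ42 and 33.5 with ScrAβ42.

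With 3D6 Kcnq1ot1 ran from 4.98 CPM through 6.46 to 9.32 and with the control antibody from 4.35 through 8.26 to 21.7. The 3 highest hearts, control mice Con_22, Con_18 and Con_19, had 21.7, 13.6 and 11.6 CPM, and 6 of 8 hearts of the 3D6 group were below the control median. The log2 difference was -0.60 (SE 0.25; 95% interval -1.13 to -0.07; edgeR p = 0.0294; adjusted p = 0.946; two-sided exact permutation p = 0.110). It was -0.34 without mouse Con_22 and -0.24 with the mitochondrial share in the model. The unadjusted edgeR p-value was no longer under 0.05 with either the mitochondrial share or the atrial score in the model, nor without mouse 3D6_12, 3D6_4, Con_18 or Con_22. All 7 endothelial markers had a lower fitted level with 3D6, with a median log2 difference of -0.19, none at 0 and none past an adjusted p of 0.05. Pecam1 (-0.23) and Emcn (-0.25) had an unadjusted p under 0.05, as 2.32% of all genes did in this direction (edgeR adjusted p = 0.946 for both). Their summed level was 657 to 796 CPM with 3D6 and 682 to 1037 CPM with the control antibody, and their part in the level of Kcnq1ot1 was not tested. Of the other marker lists, 8 of 8 fibroblast, 5 of 5 blood and 2 of 2 mesothelial markers also had a lower fitted level with 3D6. So did 5 of 6 macrophage and 4 of 5 smooth muscle and pericyte markers. The 4 tested atrial markers had a lower fitted level too, but the median summed level of the 5 atrial markers was higher with 3D6. It was 98.2 CPM with 3D6 and 2.87 CPM with the control antibody, where mouse Con_15 had 2768 CPM. Kcnq1 differed by 0.16 (SE 0.13; edgeR adjusted p = 0.946).

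Control mouse Con_22 had the highest level of Malat1, Neat1, Meg3, H19 and Kcnq1ot1 among the 16 antibody hearts, 5 of the 7 RNAs, and the lowest mitochondrial share, 25.9%. Its library was also the shallowest of the 16, with 6397192 estimated counts. Its fibroblast, endothelial, macrophage and blood marker sums were the highest of the control group, at 878, 1037, 139.6 and 2685 CPM. The part of depth, mitochondrial share and these cells in its levels was not tested.

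Neat1, Meg3 and Kcnq1ot1 were lower in antibody hearts with a larger mitochondrial share, in both groups. For Neat1 the Pearson r with the share was -0.72 (permutation p = 0.00158; adjusted p = 0.00527 over 20 relations) and Spearman rho -0.80 (p = 0.00034; adjusted p = 0.0034), and r was -0.65 without control mice Con_22 and Con_8. Among 28 relations added after the fits were seen, Meg3 had an r of -0.76 (permutation p = 0.00055; adjusted p = 0.00511; rho -0.83, p = 9e-05) and Kcnq1ot1 an r of -0.76 (permutation p = 0.00073; adjusted p = 0.00511; rho -0.68, p = 0.00461). Without the same 2 hearts they were -0.78 and -0.70. Within the 3D6 and the control hearts r was -0.52 and -0.78 for Neat1, -0.75 and -0.77 for Meg3, and -0.72 and -0.78 for Kcnq1ot1. Malat1 had an r of -0.10 with the share over all 16 hearts (permutation p = 0.708; rho -0.11, p = 0.691), and of 0.81 within the 3D6 hearts and -0.30 within the control hearts. Mirg, with 0 to 7 counts, had an r of -0.61 (permutation p = 0.0126, adjusted p = 0.0352, rho -0.59, adjusted p of rho 0.0633). This r was -0.44 without control mice Con_22 and Con_8, -0.33 within the 3D6 hearts and -0.76 within the control hearts. Rian had an r of -0.43 (permutation p = 0.093) and H19 one of 0.02 (permutation p = 0.953).

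Both quantities of each relation come from the same library and its depth. In the 14 peptide hearts the planned relation of Neat1 with the share had the opposite sign, with an r of 0.55 (permutation p = 0.0411; adjusted p = 0.0913; rho 0.45, p = 0.11; adjusted p = 0.245), and r was 0.65 within the Aβ42 and 0.42 within the ScrAβ42 hearts. It rested on mice Abeta42_3457 and ScrAbeta42_3448, without which r was 0.095. Over the 11 peptide hearts with low fibroblast markers, a subset chosen after seeing the data, Neat1 had an r of 0.15 with the share (permutation p = 0.657; rho 0.22, p = 0.52; r without the 2 farthest hearts 0.088). Meg3 had an r of -0.21 with the share over the same 11 hearts (permutation p = 0.538, rho -0.22, p = 0.519, r without the 2 farthest hearts -0.13). The difference between the studies was not tested.

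**Figure D4:**
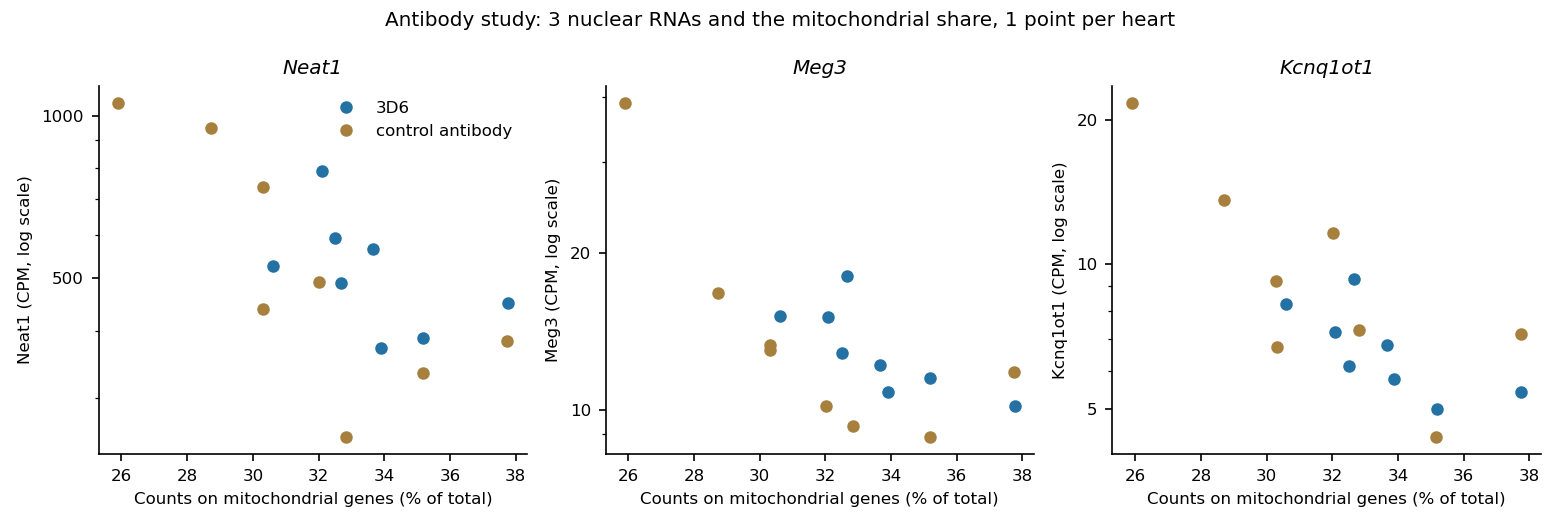
Neat1, Meg3 and Kcnq1ot1 (CPM, log axis) against the percentage of counts on mitochondrial genes in the 16 antibody hearts, 1 point per heart. All 3 RNAs are highest in the control heart with the lowest share, 25.9%.

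The antibody table separates isoforms. Of the 59 transcripts, 10 had enough counts for the transcript fit, and 0 of the 10 passed an adjusted p of 0.05, against 0% of 20857 transcripts. Kcnq1ot1-201, the single transcript of its gene, was the 1 with an unadjusted p under 0.05 (log2 difference -0.60, SE 0.27; edgeR adjusted p = 1.00), against 2.4% of all transcripts, 0.959% higher and 1.44% lower. DESeq2 called 9 transcripts, none of them from these genes. In simulated data the transcript fit recovered 27.5% of changes of 1 on the log2 scale. That 0 of the 10 passed therefore does not show that no isoform differed.

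Neat1-201, the long isoform of 20771 bases that builds paraspeckles, and Neat1-202, the short isoform of 3004 bases, start at nearly the same base, and the long one runs 17599 bases further. The long isoform took from 17.2% through 18.4% to 20.1% of the estimated Neat1 counts with 3D6 and from 13.7% through 18.4% to 22.2% with the control antibody. The mean was 18.5% in both groups (SD 1.02 with 3D6 and 2.59 with the control antibody, n = 8 each; two-sided exact permutation p = 1.00). After division by length its share was 2.18 to 3.92% of the molecules estimated per heart. The short isoform lies within the long one, so each share depends on how Salmon divided the reads of the common part.

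Malat1-203, a spliced RNA of 485 bases at the 5′ end of Malat1, took from 2.82% through 4.37% to 5.46% of the Malat1 counts with 3D6 and from 3.43% through 4.75% to 8.96% with the control antibody (exact permutation p = 0.109, n = 8 each). Control mouse Con_22 had the 8.96%. Meg3-209, the longest Meg3 transcript at 14548 bases, had a mean of 41.5% (SD 4.65) with 3D6 and 39.9% (SD 4.00) with the control antibody (exact permutation p = 0.468, n = 8 each). H19-202 took 94.5 to 100% of the H19 counts in the 3D6 hearts and 92.5% or more in 7 control hearts, and 62.6% in control mouse Con_18, which had 7 counts of H19.

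**Figure D5:**
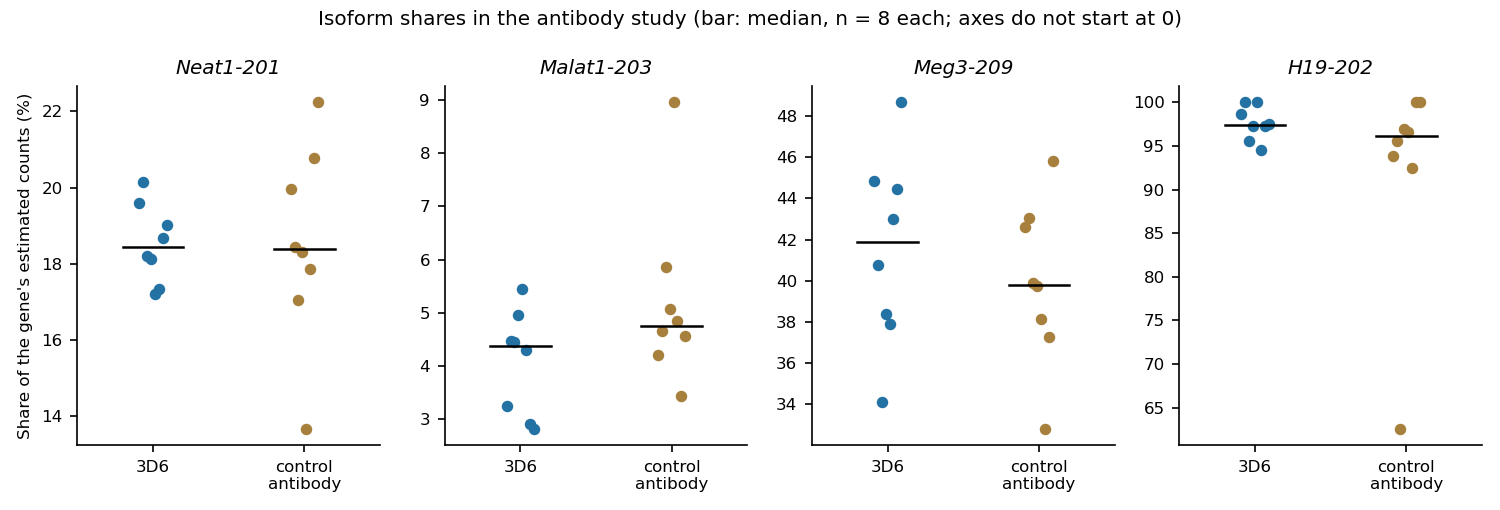
Share of the gene's estimated counts (%) on 1 isoform of each of 4 genes in the antibody hearts, 1 point per heart, with the group median as a bar; the axes do not start at 0. The median share of Neat1-201 was 18.4% in both groups, and single control hearts lie apart for Malat1-203 and H19-202.

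The genes most like each RNA across hearts were ranked by Pearson r on log2 CPM with the group mean subtracted, over genes with 100 counts or more on average; these values describe 14 or 16 hearts that share depth and tissue differences. In the peptide study H19 was nearest to Igf2, its imprinted neighbour that encodes an insulin-like growth factor (r = 0.85). Meg3 was nearest to Mrvi1, Mrc2, a collagen receptor, and Dnajc10, a chaperone of the endoplasmic reticulum, and Rian to Fkbp9, Serpinf1 and Dnajc10. Because the 3 hearts high in both RNAs form a cluster, r is given over the other 11 hearts, a subset chosen after seeing the data: it was 0.71, 0.87 and 0.79 for the genes near Meg3 and 0.89, 0.81 and 0.80 for those near Rian. Over all 14 hearts Malat1 was near to Mus81 and Clock, the circadian transcription factor (both 0.88; 0.77 over the 11), Neat1 to the kinase gene Csnk1d (0.89), and Kcnq1ot1 to the chromatin genes Chd9 and Ash1l (both 0.88).

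None of these genes was among the nearest 3 for the same RNA in the antibody hearts. There Malat1 was near to Tet2, which oxidises methylated DNA, and the RNA-binding gene Rbm6 (both 0.89). Neat1 was nearest to Coro6, Asap3 and Jag2, a Notch ligand (0.94, 0.93 and 0.92), and Meg3 to Nrbp2, Safb2 and Ccnl2 (0.96, 0.96 and 0.95). Kcnq1ot1 was nearest to Mafg, Mum1 and Sox17, an endothelial transcription factor (0.94, 0.94 and 0.92), Rian to Jmjd6 (0.75), and H19 to Npr3, a natriuretic peptide clearance receptor (0.78). The genes named are the highest in r of 6191 to 6322 genes compared.

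Protein partners and neighbours of these RNAs were counted from lists, and no gene of any list passed an adjusted p of 0.05 in either study. Of 15 paraspeckle protein genes, 6 were higher and 9 lower in both studies. Dazap1 alone had an unadjusted p under 0.05 (Aβ42 against ScrAβ42, log2 difference -0.20, edgeR adjusted p = 0.709). In that comparison 6.51% of all genes did, 2.91% as lower. Of 15 speckle and splicing genes, 9 were higher and 6 lower with Aβ42, among them Srsf5 (0.18; edgeR adjusted p = 0.658) and Srsf7 (-0.17; edgeR adjusted p = 0.692), and 7 were higher and 8 lower with 3D6. Srsf5 and Srsf7 had an unadjusted edgeR p under 0.05 with Aβ42, against 3.6% of all genes as higher and 2.91% as lower. No gene of that list did with 3D6. Median log2 differences of these 2 lists lay between -0.03 and 0.02, near the medians of all genes, 0.00 and -0.01.

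Of 12 genes that process the Malat1 3′ end or, as Mettl16, bind it, 7 were higher and 5 lower with Aβ42. They included Rpp25, a subunit of RNase P (1.06; edgeR adjusted p = 0.692), and Mettl16, which binds the triple helix (-0.25; edgeR adjusted p = 0.703). Rpp25 and Mettl16 had an unadjusted edgeR p under 0.05, against 3.6% of all genes as higher and 2.91% as lower. Rpp25 had a median of 2.56 CPM with Aβ42 and 2.12 CPM with ScrAβ42, and its highest heart was mouse Abeta42_3457, at 9.45 CPM. With 3D6, 3 were higher and 9 lower, with a median of -0.11 and none at an unadjusted p under 0.05. Begain, Dlk1, Rtl1 and Dio3, the coding genes beside Meg3, were all under 10 counts per heart on average and could not be tested.

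Around H19 and Kcnq1ot1, 7 of 11 cluster genes could be tested: 4 were higher and 3 lower with Aβ42, and 1 was higher and 6 lower with 3D6, with none at an unadjusted p under 0.05. Igf2 differed by 0.51 with Aβ42 (SE 0.35; edgeR adjusted p = 0.839) and by -0.26 with 3D6 (SE 0.32; edgeR adjusted p = 0.946). Cdkn1c, a cell-cycle inhibitor that Kcnq1ot1 silences on the paternal chromosome, differed by -0.12 and -0.07. Among other imprinted genes 10 of 16 were higher with Aβ42, led by Plagl1 (1.25; edgeR adjusted p = 0.690) and Peg3 (0.99; edgeR adjusted p = 0.703). These 2 had an unadjusted p under 0.05, against 3.6% of all genes as higher. Slc38a4, an amino acid transporter gene, was the 1 with such a p in the other direction (-0.41, edgeR adjusted p = 0.742), against 2.91% of all genes. Of the other imprinted genes 7 of 13 were higher with 3D6, where Mest had the smallest p (-0.55, edgeR adjusted p = 0.946).

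Of 33 other long noncoding RNAs in the tables, 24 could be tested with the peptide and 21 with the antibody. With Aβ42, 11 were higher and 13 lower, and Snhg1, a snoRNA host, was the 1 with an unadjusted p under 0.05 (0.44, edgeR adjusted p = 0.714). Of all genes, 6.51% had such a p with Aβ42, 3.6% as higher. Carmn, an RNA of smooth muscle, differed by 1.27 (edgeR adjusted p = 0.775). With 3D6, 7 were higher and 14 lower, with a median of -0.06 and none at an unadjusted p under 0.05. Carmn reached 14.5 CPM in mouse Abeta42_3457, and without that heart its mean was 1.33 CPM with Aβ42 against 1.39 with ScrAβ42. The same heart held the highest summed level of 5 smooth muscle and pericyte markers, 2326 CPM, against 639 to 1064 CPM in the ScrAβ42 hearts, and without it the mean of Acta2, a smooth muscle actin, was 91.2 CPM with Aβ42 against 101 with ScrAβ42. The part of these cells in the level of Carmn was not tested.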

How the data were processed

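Total RNA libraries of the left ventricle (TruSeq Stranded Total RNA, NovaSeq) were trimmed and mapped with Salmon to GENCODE vM24 (GRCm38) by the authors. For the peptide study counts per gene, and for the antibody study estimated counts per transcript, were deposited without normalization. The Salmon version and the step from transcripts to genes are not given in the sources used here. Of the peptide columns, 1 could not be tied to a label and stayed out.

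Genes were named with GENCODE vM21 (99.5% of gene and 99.2% of transcript identifiers), and antibody transcripts were summed to genes and rounded. Unlisted transcripts (0.381% of counts) were kept apart. Each contrast was fitted alone with edgeR 4.0.16 (TMM, quasi-likelihood F test, two-sided) on genes averaging 10 counts or more, with Benjamini-Hochberg adjustment over all of them. Groups, 7 against 7 and 8 against 8 mice, follow the sample titles. Exact permutation tests compared mean log2 CPM (prior count 2) and isoform shares over mice, and relations across hearts used 100000 permutations. DESeq2 1.42.0, other scalings and filters, 2 covariates and each mouse left out were tried. CPM values are scaled with TMM. The fits were tested on simulated data with 200 genes or transcripts changed by 1 on the log2 scale. They recovered 79% of the changed peptide genes, 87% of the changed antibody genes and 27.5% of the changed transcripts. False calls numbered 11, 14 and 3.

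Named genes were the 7 members, at most 3 genes of smallest p per list and study, the 3 genes most like each tested member, and Igf2, Cdkn1c, Kcnq1 and Gm37376, which stand beside the members. Some genes that this rule names are not reported here. The members and lists were chosen with earlier results of these data known. The labels give separate mice per group, so p-values measure the spread between mice.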

Additional observations from a re-analysis of the deposited data

Results flagged for a closer look

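Among 36 groups of levels and isoform shares, 5 held a heart far from the others by Dixon's test at the 95% level; chance alone gives such a heart in about 1 in 20 groups, and the levels of one heart are not independent of each other. Meg3 stood apart in control antibody mouse Con_22, at 38.9 CPM. Meg3 and Rian both stood apart in mouse ScrAbeta42_3448, at 48.9 and 16 CPM, which also had the highest fibroblast and atrial marker sums of its group. The share of Malat1-203 stood apart in control antibody mouse Con_22, at 8.96% of the gene's counts. The share of H19-202 stood apart in control antibody mouse Con_18, at 62.6%, in a heart with 7 counts of H19.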

How the results depend on the processing

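No member was called under any setting tried. DESeq2 called 12 genes in the peptide study and 9 transcripts in the antibody study where edgeR called 0 and 0; leaving out 1 mouse gave 0 to 3 peptide genes and 0 antibody genes and transcripts. At an unadjusted p under 0.05, 780 peptide genes, 447 antibody genes and 500 transcripts became 1475, 1213 and 7350 without the filter on low counts, and 1253 peptide genes with the mitochondrial share as covariate; leaving out 1 mouse gave 608 to 1267, 256 to 771 and 393 to 759. The causes were not tested.

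With Aβ42 the sign turned for Malat1 with total count scaling (0.0149), the atrial score (0.26) and without the hearts high in fibroblast markers (0.0140), for Meg3 with the atrial score (-0.66) and without the hearts high in fibroblast (-0.17) or atrial markers (-0.43), and for Rian likewise (-0.78, -0.20 and -0.52); the last 2 settings were chosen after seeing the data. With 3D6 it turned under the mitochondrial share for Meg3 (0.17) and Neat1 (0.21). Without subtraction of the group mean, r turned to 0.0263 for Malat1 with the mitochondrial share and to 0.00317 for Meg3 with the fibroblast score (antibody).

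Leaving out 1 mouse, log2 differences with Aβ42 ran from -0.12 to 0.0597 for Malat1 (sign turned without Abeta42_3455, Abeta42_3457, ScrAbeta42_3441 or ScrAbeta42_3449), -0.0519 to 0.12 for Neat1 (Abeta42_3455, Abeta42_3456 or ScrAbeta42_3448), 0.00173 to 0.66 for Meg3, -0.17 to 0.65 for Rian (Abeta42_3457), 0.95 to 1.76 for H19 (highest without ScrAbeta42_3443) and -0.30 to -0.05 for Kcnq1ot1. With 3D6 they ran from 0.13 to 0.27 for Malat1, -0.26 to 0.0288 for Neat1 (Con_22), -0.29 to 0.15 for Meg3 (Con_22), -0.19 to 0.45 for Rian (3D6_20), -1.01 to -0.30 for H19 and -0.71 to -0.34 for Kcnq1ot1. Signs of transcripts turned without control mouse Con_22 for Malat1-203 (-0.38 to 0.0231), Meg3-209 (-0.24 to 0.19), Neat1-202 (-0.28 to 0.0380), Neat1-203 (-0.49 to 0.0121) and Neat1-201 (-0.18 to 0.0413, also without Con_18). The difference in the Neat1-201 share, 7.6e-05 percentage points, ran from -0.69 to 0.53.

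No paired analysis was possible because the groups of each study share no mouse numbers. In the antibody study Rian and Mirg had at most 38 and 7 counts in a heart, and Mirg was not tested in the fit. The log2 difference of Rian had an SE of 0.57 at a mean of 13.8 counts. That of H19 had an SE of 0.62 at a mean of 245 counts. The part of depth in these errors was not tested. That no difference in Rian or Mirg was detected does not show that there was none.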
